A study of Gossypium hirsutum with 3 samples.

Results

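Cotton (Gossypium hirsutum) fibers are single cells of the seed coat that elongate after flowering, and 4 genes of the endoplasmic reticulum (ER) and of vesicle traffic were followed in them here: the reticulon Contig15465, the ER lumen protein retaining receptor Contig10804, the endomembrane protein gene Contig15513 (EMP70), and Contig2558, whose best match, a weak one, was a syntaxin. They were chosen by their measured ratio of 10 dpa over 1 dpa fiber (dpa, days post anthesis) on these same arrays and by what the study's additional file says of them, so their ratios are given as a description, with no test. All of their probes were used, which made 13 probes on 15 spots, and 4 of the 11143 genes on the array. Contigs are assembled cDNA sequences, and the descriptions are best protein matches.

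The study compared fiber initials with elongating fiber on custom 2-colour oligonucleotide arrays, and 3 arrays that each carried cDNA of both stages were analysed here. Cotton was grown in the field, with no treatment, and the methods name the cultivars DES119 and ST4793R without assigning them to arrays. The 1 dpa material was shaken off frozen whole ovules with glass beads, pooled from many bolls, and the 10 dpa fiber was dissected from the ovules. The RNA was polyribosomal by the methods and total by the labels of the source. The arrays are named replicates 1 to 3 without an order. On replicates 1 and 3 the 10 dpa cDNA carried Cy5, and on replicate 2 it carried Cy3. The array files code 2 RNAs per stage, one shared by replicates 1 and 2 for 1 dpa and one by replicates 1 and 3 for 10 dpa fiber, whereas the methods describe 3 biological replications with separate harvest days. The sources used here do not settle which holds, so the SD over 3 arrays and the p-values measure the spread between these arrays, part of which may be technical.

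New membrane and secreted proteins enter the ER, whose tubules are curved by reticulons. Coated vesicles take cargo on to the Golgi, and receptors of the ER lumen return resident proteins that escaped. Vesicles that leave the Golgi fuse with their target membrane by means of syntaxins and related proteins, and the growth of a cotton fiber needs a steady supply of membrane and wall material by this route.

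The arrays held 42034 gene spots. The negative control level of a channel was set at the 95th percentile of its 314 negative controls, and 86.0% to 92.2% of the gene spots passed it in 1 dpa and 81.2% to 91.4% in 10 dpa fiber. All 6 genes listed as fiber markers, among them the RD22-like GhRDL and the transcription factor MYB2, passed that level in both stages, as most gene spots did. The 6 did not share a direction. In 10 dpa fiber 2 were called higher, GhRDL among them, and 1, GhFDH, lower (limma, adjusted p of 0.05), with a median log2 ratio of 0.05. All 7 listed cell division genes passed in both stages too. None of those was called higher and 3 were called lower in 10 dpa fiber (limma, adjusted p of 0.05), with a median log2 ratio of -0.54. Over all genes, 8.03% were called higher and 5.61% lower. The sum of the cell division signals lay between 26561 and 49802 for 1 dpa and between 10513 and 48979 for 10 dpa fiber. Both listed photosynthesis genes also passed in both stages and were called higher (median log2 ratio 2.07). Their summed signals lay between 936 and 4663 for 1 dpa and between 5015 and 16836 for 10 dpa fiber. Whether other cells in the preparations had a part in the ratios below was not tested, and in bulk RNA fewer cells of a type and less RNA per cell cannot be told apart.

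After normalization, the mRNAs of all 4 genes were higher in the elongating fiber of 10 dpa than in the initials of 1 dpa on each of the 3 arrays. The mean rise ran from 1.80-fold for the ER lumen receptor to 2.62-fold for EMP70. Over the whole array, 8.03% of genes were called higher and 5.61% lower at an adjusted p of 0.05 from limma, and nothing is read from that share for these 4 genes, since the same ratio chose them. Of their 45 normalized spot ratios (15 spots on 3 arrays), 43 were above 0 on the log2 scale, and both exceptions belonged to the ER lumen receptor. From the uncorrected signals 43 were above 0 too, with 11 of 12 for the reticulon and 11 of 12 for the ER lumen receptor. The spots were above the negative control level in 44 of 45 cases in 1 dpa fiber and in 45 of 45 in 10 dpa fiber.

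The reticulon Contig15465, of the family that shapes ER tubules, had the most even ratio of the 4 genes after loess normalization. Its log2 ratio (10 dpa over 1 dpa, as in all that follows) came to 1.23, 1.07 and 1.12 on replicates 1, 2 and 3. The mean was 1.14 ± 0.08 (SD, n = 3 arrays), or 2.20-fold, and 10.7% of all genes had a smaller SD between arrays. That evenness depended on the scaling, since the SD was 0.25 under median centring, as it was for EMP70, and 0.26 in the uncorrected signals. The normalized log2 level was 8.32, 8.87 and 8.16 in 1 dpa fiber and 9.55, 9.94 and 9.27 in 10 dpa fiber on replicates 1, 2 and 3. The stages did not overlap, and the lowest 10 dpa level lay 0.40 above the highest 1 dpa level. Levels were not scaled between arrays, so this gap and those given below also hold differences in brightness between arrays. The median signal of gene spots in 1 dpa fiber was 362, 306 and 222 on replicates 1, 2 and 3.

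Behind that even mean, the probes of the reticulon gene fell into 2 different sizes. Probes 3 and 4 rose 3.42-fold and 3.14-fold (log2 ratios of 1.77 ± 0.39 and 1.65 ± 0.22), whereas probes 1 and 2 both rose 1.48-fold (0.57 ± 0.25 and 0.57 ± 0.13; SD, n = 3 arrays). Over the 3 arrays, probes 3 and 4 lay between 1.43 and 2.20, and probes 1 and 2 between 0.28 and 0.72. Probe 1 was close to background, with signals between 104 and 183 for 1 dpa and between 135 and 215 for 10 dpa fiber. On replicate 1 its 1 dpa signal was 0.981 times the negative control level. There its uncorrected signal was lower in 10 dpa fiber (135) than in 1 dpa fiber (183), and only the normalized log2 ratio (0.28) was above 0. Probe 2 was not dim, so the smaller of the 2 sizes rests on it rather than on probe 1. Its signal in 1 dpa fiber was 3.46 to 13.2 times the negative control level.

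For probe 4 of the reticulon the measured signals of 1 dpa and 10 dpa fiber were 531 and 2271 (replicate 1), 1009 and 1963 (replicate 2), and 506 and 1866 (replicate 3). On all 3 arrays the 10 dpa signal was the higher of the pair. For probe 2 they were 647 and 1126, 987 and 1182, and 496 and 762 on the same arrays, again higher in 10 dpa fiber each time but by less.

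**Figure D1:**
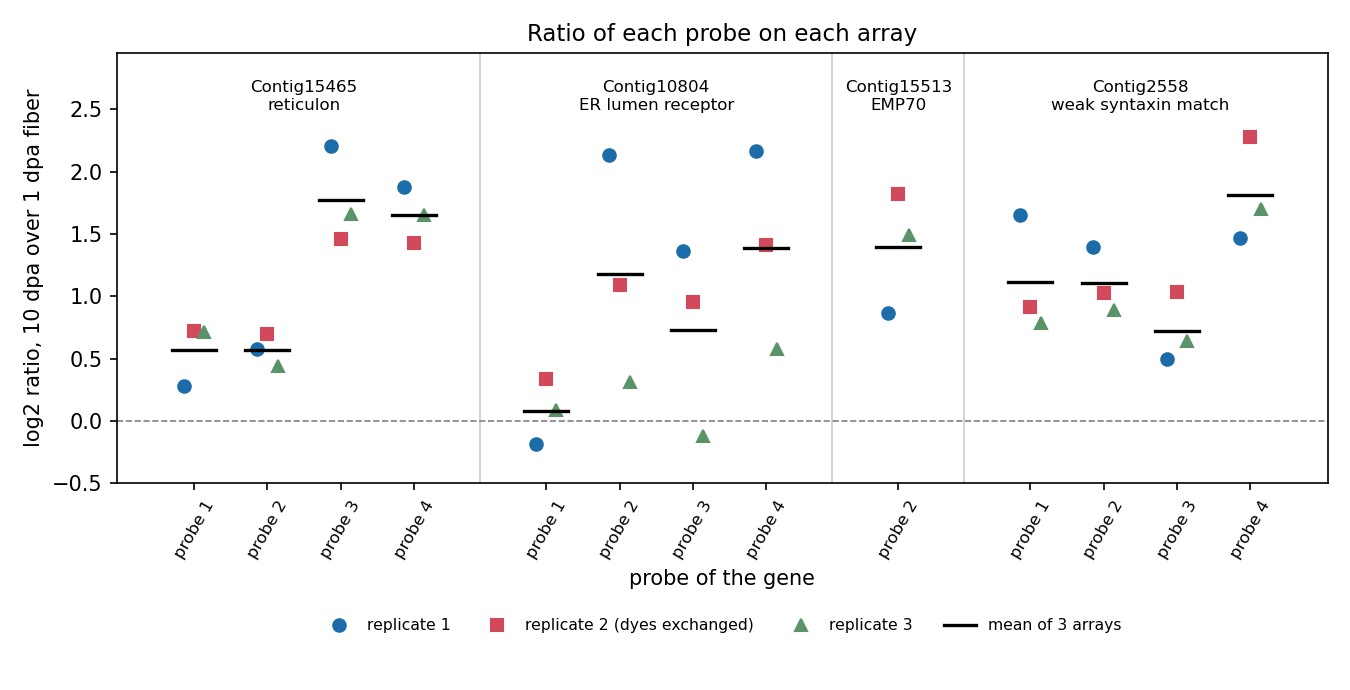
Normalized log2 ratio of 10 dpa over 1 dpa fiber (vertical axis) for each of the 13 probes (horizontal axis), with a marker for each array and a bar at the mean of the 3 arrays. Probes 3 and 4 of Contig15465 lie above 1.4 on every array and its probes 1 and 2 below 0.8, and probe 1 of Contig10804 has a mean of 0.08.

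The ER lumen protein retaining receptor Contig10804, which returns escaped ER proteins from the Golgi, differed most between arrays. Replicate 1 gave a log2 ratio of 1.37, replicate 2 one of 0.95 and replicate 3 one of 0.22. The mean was 0.84 ± 0.58 (SD, n = 3 arrays), or 1.80-fold, and 93.8% of all genes had a smaller SD between arrays. Its normalized log2 level was 9.70, 10.13 and 9.55 in 1 dpa fiber and 11.07, 11.08 and 9.77 in 10 dpa fiber on replicates 1, 2 and 3. Here the stages overlapped, because the 10 dpa level of replicate 3 was 0.36 below the 1 dpa level of replicate 2. Replicates 1 and 3, which were farthest apart, carried 10 dpa RNA of the same code and 1 dpa RNA of different codes. Without replicate 3 the mean log2 ratio was 1.16, and without replicate 1 it was 0.58.

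Its probes differed as well. Probe 1 had log2 ratios of -0.18, 0.34 and 0.09 on replicates 1, 2 and 3 and a mean of 0.08 ± 0.26, which is smaller than its spread. Probe 4 had a mean of 1.39 ± 0.79, probe 2 one of 1.18 ± 0.91 and probe 3 one of 0.73 ± 0.77 (SD, n = 3 arrays). These 3 probes shared an order of the arrays, with replicate 1 highest and replicate 3 lowest. Probe 1 did not follow that order, since its replicate 1 was the lowest. It was well measured, with signals 7.16 to 21.6 times the negative control level in 1 dpa fiber and 11.4 to 15.6 times in 10 dpa fiber. On replicate 1, its signals were 1448 in 1 dpa and 1741 in 10 dpa fiber, whereas those of probe 4 were 551 and 2938. The study also measured this lumen receptor by semiquantitative PCR. That PCR detected the increase from ovules to 1 dpa fiber but no further increase in 10 dpa fiber. The authors thought it likely that the method was too insensitive for the latter.

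EMP70 proteins are multispanning membrane proteins of the Golgi and endosomes, and Contig15513, which encodes one, had the largest mean rise of the 4 genes. It was represented by 1 probe printed on 3 spots. For 1 dpa fiber the 3 spots read between 9393 and 12558 on replicate 1, between 8523 and 9178 on replicate 2 and between 4774 and 5937 on replicate 3. For 10 dpa fiber the ranges were 36282 to 47545, 19715 to 21300 and 19080 to 22501. Each 10 dpa spot was thus brighter than its 1 dpa partner, and each 10 dpa range lay above all of the 1 dpa ranges. The 10 dpa spots were 209 to 356 times the negative control level.

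After normalization the log2 ratio of Contig15513 came to 0.87, 1.82 and 1.49 on replicates 1, 2 and 3, with a mean of 1.39 ± 0.48 (SD, n = 3 arrays), or 2.62-fold. The 3 spots agreed closely within an array, with an SD of 0.057, 0.018 and 0.047 on replicates 1, 2 and 3, so the spread of this gene lay between arrays. Its normalized log2 level was 13.99, 12.80 and 12.63 in 1 dpa fiber and 14.86, 14.62 and 14.12 in 10 dpa fiber. The stages did not overlap, but the gap between them was only 0.13, because the normalized 1 dpa level of replicate 1 was high. That level depended on the loess step. Under median centring the log2 ratio of replicate 1 was 1.82, against 0.87 after loess.

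**Figure D2:**
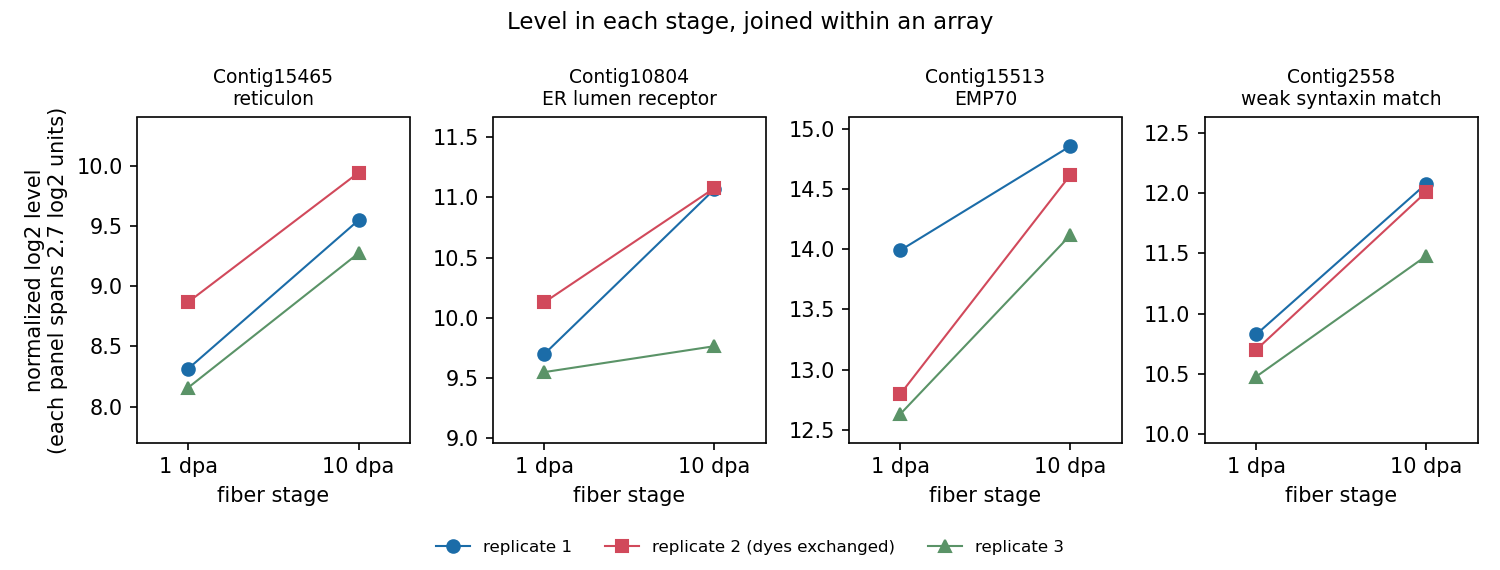
Normalized log2 level of each gene in 1 dpa and 10 dpa fiber (horizontal axis), with both stages of an array joined by a line, in panels of equal span that do not share an origin. All lines rise, that of replicate 3 for Contig10804 by only 0.22, and the stages overlap for Contig10804 alone. Levels were not scaled between arrays.

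The order of the arrays for EMP70 depended on the scaling. From the uncorrected signals replicates 1, 2 and 3 gave a 3.81-fold, 2.30-fold and 3.91-fold higher value in 10 dpa fiber, whereas after loess normalization it was 1.82-fold, 3.53-fold and 2.80-fold higher. Replicate 2, on which the dyes were exchanged, moved from the lowest to the highest. Loess takes out a trend of the ratio with brightness, and among the brightest 10% of gene spots the median uncorrected log2 ratio of 10 dpa over 1 dpa was 0.82, -0.51 and 0.34 on replicates 1, 2 and 3. All 9 spot values of Contig15513 (3 spots on 3 arrays) lay in that brightest 10%, as did 8 of 12 of Contig2558, 1 of 12 of Contig10804 and 0 of 12 of Contig15465. Under median centring, which has no such term, the log2 ratio of Contig15513 was 1.71 ± 0.25 (SD, n = 3 arrays).

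**Figure D3:**
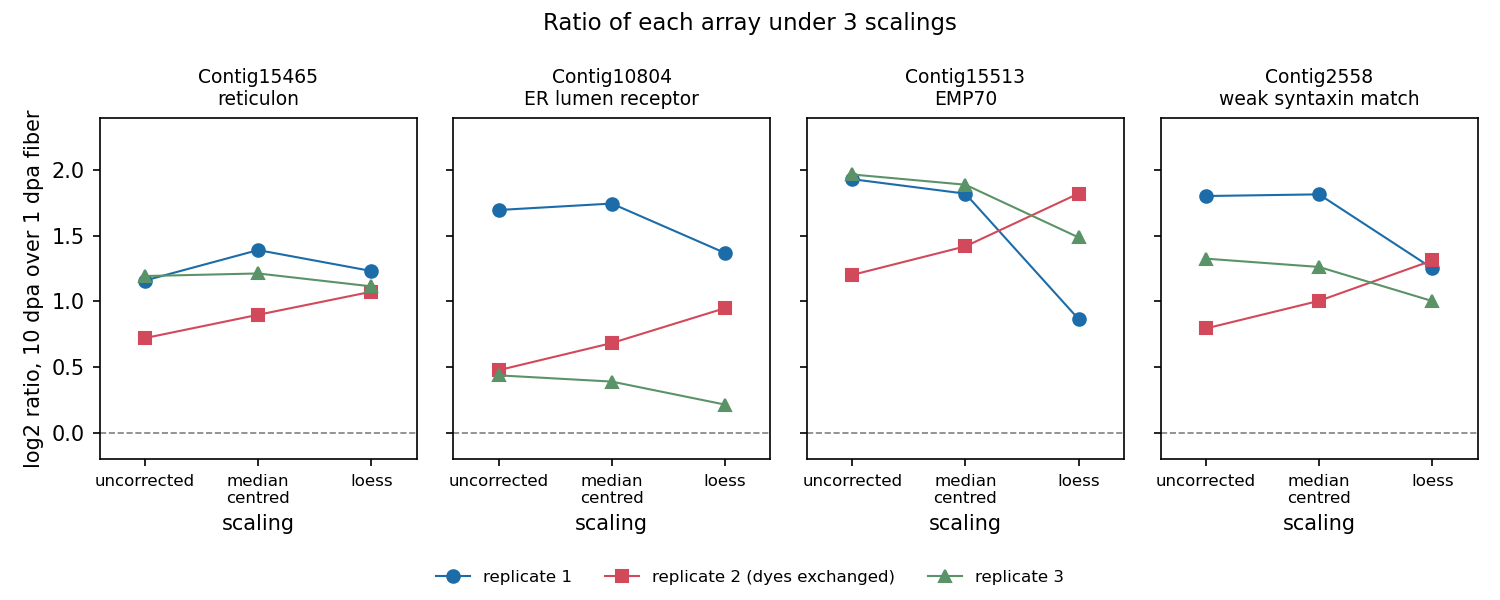
Log2 ratio of 10 dpa over 1 dpa fiber (vertical axis) of each array, from uncorrected signals, after median centring and after loess (horizontal axis). Every value is above 0 under the 3 scalings, and for Contig15513 the lines of replicates 1 and 2 cross, from 1.93 and 1.20 in the uncorrected signals to 0.87 and 1.82 after loess.

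Contig2558 matched a syntaxin only weakly, and its membership of that family of vesicle fusion proteins rests on that match. Replicates 1, 2 and 3 gave log2 ratios of 1.25, 1.31 and 1.00. The mean was 1.19 ± 0.16 (SD, n = 3 arrays), or 2.28-fold. The normalized log2 level was 10.83, 10.70 and 10.48 in 1 dpa fiber and 12.08, 12.01 and 11.48 in 10 dpa fiber on replicates 1, 2 and 3. In these levels after loess, which were not scaled between arrays, this gene had the widest gap between stages. Its lowest 10 dpa level was 0.65 above its highest 1 dpa level. The gaps under other scalings were not compared.

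The 4 probes of Contig2558 all rose on all 3 arrays, by 2.17-fold (probe 1), 2.15-fold (probe 2), 1.65-fold (probe 3) and 3.52-fold (probe 4). Probe 4 was the highest of them on replicates 2 and 3, at log2 ratios of 2.28 and 1.70, and probe 1 on replicate 1, at 1.65. The measured signals of probe 4 in 1 dpa and 10 dpa fiber were 4219 and 22072 (replicate 1), 2395 and 7878 (replicate 2), and 1730 and 7300 (replicate 3). Those of probe 3 were 4001 and 10186, 3153 and 4403, and 2071 and 4145. Both probes were thus higher in 10 dpa fiber on each array, and the uncorrected ratio of probe 4 was the larger each time.

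Disagreement between probes was wide in the 3 genes with 4 probes. The SD between the probe means was 0.46 for Contig2558, 0.66 for Contig15465 and 0.58 for Contig10804, on the log2 scale. The median of that SD over the 8604 genes with 4 probes was 0.17, and 92.3%, 97.5% and 96.1% of them had a smaller one. Among the 683 genes with 4 probes that were called higher the median was 0.30, with 68.2%, 86.1% and 81.3% below these 3 genes. The position of a probe on its contig and the other transcripts it can bind were not used here, so the cause of the disagreement was not tested.

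In their pattern over the 3 arrays, the reticulon and the weak syntaxin match lay closest to each other. The Euclidean distance between their 3 log2 ratios was 0.26, against 0.80 to 1.62 for the 5 other pairs, and the widest was between EMP70 and the ER lumen receptor. Among the 769 other genes that the additional file describes, those nearest to the reticulon were a gene with a weak match to a fly protein (TMIRS_103_A02.F, distance 0.094), a dehydration-responsive protein (Contig3843, 0.099) and a weak cyclin match (TMIRS_190_H08.F, 0.10). Nearest to the ER lumen receptor were an unconventional myosin heavy chain (TMIRS_168_G01.F, 0.23), a tobamovirus multiplication protein (Contig14544, 0.24) and a Rab GTPase (TMIRS_011_B12.F, 0.27), all with their lowest ratio on replicate 3. EMP70 lay nearest to an unnamed rice match (Contig6396, 0.35), a weak myosin match (Contig1210, 0.36) and a glucosyltransferase (TMIRS_075_B06.F, 0.40), and Contig2558 to a receptor-type kinase clone (0.15), a clone with a weak match to a hydroxyproline-rich glycoprotein (0.18) and a pectate lyase (Contig4866, 0.22). Over 3 arrays such distances are a description only.

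A list of 18 other ER and vesicle traffic genes was taken from the same additional file. Of these, 4 were higher in 10 dpa fiber, 2 were lower and 12 were not past the test (limma, adjusted p of 0.05 over all 11143 genes), where 8.03% were called higher and 5.61% lower. Their median log2 ratio was 0.19, against -0.04 over all genes. Only 2 of the 18 are listed in that file for the fiber stages, and since these were selected on the same arrays their direction is not independent evidence. Among the 16 that are listed for the ovule comparison only, 2 were higher, 2 lower and 12 not past the test, with a median of 0.07. These 16 are not an unselected remainder. They had not met the study's cut for the fiber stages, which drew on these same arrays, so small ratios were favoured among them. The ovule comparison shared the 1 dpa fiber with the arrays here.

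The step with the highest ratios was the clathrin coat, which forms vesicles at the Golgi and the plasma membrane. All 3 of its listed genes were higher: the auxilin-like Contig1501, which uncoats such vesicles, by 2.32-fold (log2 ratio 1.22 ± 0.26, adjusted p = 0.00446 from limma), the enthoprotin-like adaptor Contig6759 by 2.03-fold (1.02 ± 0.13, adjusted p = 0.00485 from limma) and the clathrin coat assembly protein Contig16803 by 1.78-fold (0.83 ± 0.31, adjusted p = 0.0193 from limma). The first 2 are those listed for the fiber stages, and no other step holds such a gene. The rank of this step thus follows in part from that selection on these same arrays, and the p-values of these 2 genes are not independent of it. The call for Contig16803 was lost under median centring, at a log2 ratio of 1.03.

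Between the ER and the Golgi the genes moved in different directions. SAR1 (Contig16165) is the GTPase that starts the COPII coat of vesicles leaving the ER. It fell 2.08-fold (mean log2 ratio -1.06 ± 0.40, adjusted p = 0.0137 from limma) and was below 0 on all 3 arrays, at -1.23, -0.60 and -1.35. SAR1 was represented by 1 probe printed on 3 spots, so no other probe could be compared with it. In the COPI coat, which returns vesicles to the ER, a clone of the beta subunit was 1.40-fold higher (0.49 ± 0.06, adjusted p = 0.0449 from limma), while the beta prime subunit (Contig14547) had a log2 ratio of 0.42 ± 0.21, not past the test. Rer1B (Contig16096), another retrieval protein of the ER, had a log2 ratio of -0.29 ± 0.34 and SEC61 alpha (Contig18), the channel through which new proteins enter the ER, one of -0.37 ± 0.31, neither past the test. The calls of SAR1 and of the COPI clone were both lost with median centring, at log2 ratios of -0.79 and 0.73. The COPI clone, close to the threshold, lost its call in 9 of 11 alternatives (limma or F-test, adjusted p of 0.0676 to 0.321), among them the median of probes, the filter on dim probes, the dye term, the channels as separate samples, and the arrays without replicate 2 or replicate 3 (0.46 and 0.49).

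The EMP70 family had 3 more genes on the list, which had lower mean ratios than Contig15513. That order is not a finding about the family. Contig15513 was chosen by its ratio on these arrays, and the 3 others are listed for the ovule comparison only. They had log2 ratios of 0.55 ± 0.44 (Contig17322), 0.41 ± 0.38 (Contig16680) and 0.08 ± 0.29 (Contig2868; SD, n = 3 arrays), none past the test, beside 1.39 ± 0.48 for Contig15513. At the endosome, the retromer subunit VPS35 (TMIRS_077_B07.F), which helps to recycle receptors, was 1.48-fold lower (-0.56 ± 0.10, adjusted p = 0.0314 from limma). The call of VPS35 was lost in 7 of 11 alternatives, among them median centring, at -0.39, the dye term, at -0.54, the channels as separate samples, and the arrays without replicate 2 or replicate 3, at -0.60 and -0.50. All 6 calls of the list were lost with scaling between arrays, and also with an unmoderated F-test of each gene on these 3 arrays once p was adjusted over all genes, although all 6 had an unadjusted p under 0.05 there. That F-test is not the study's, which drew on 6 arrays with a shared variance.

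**Figure D4:**
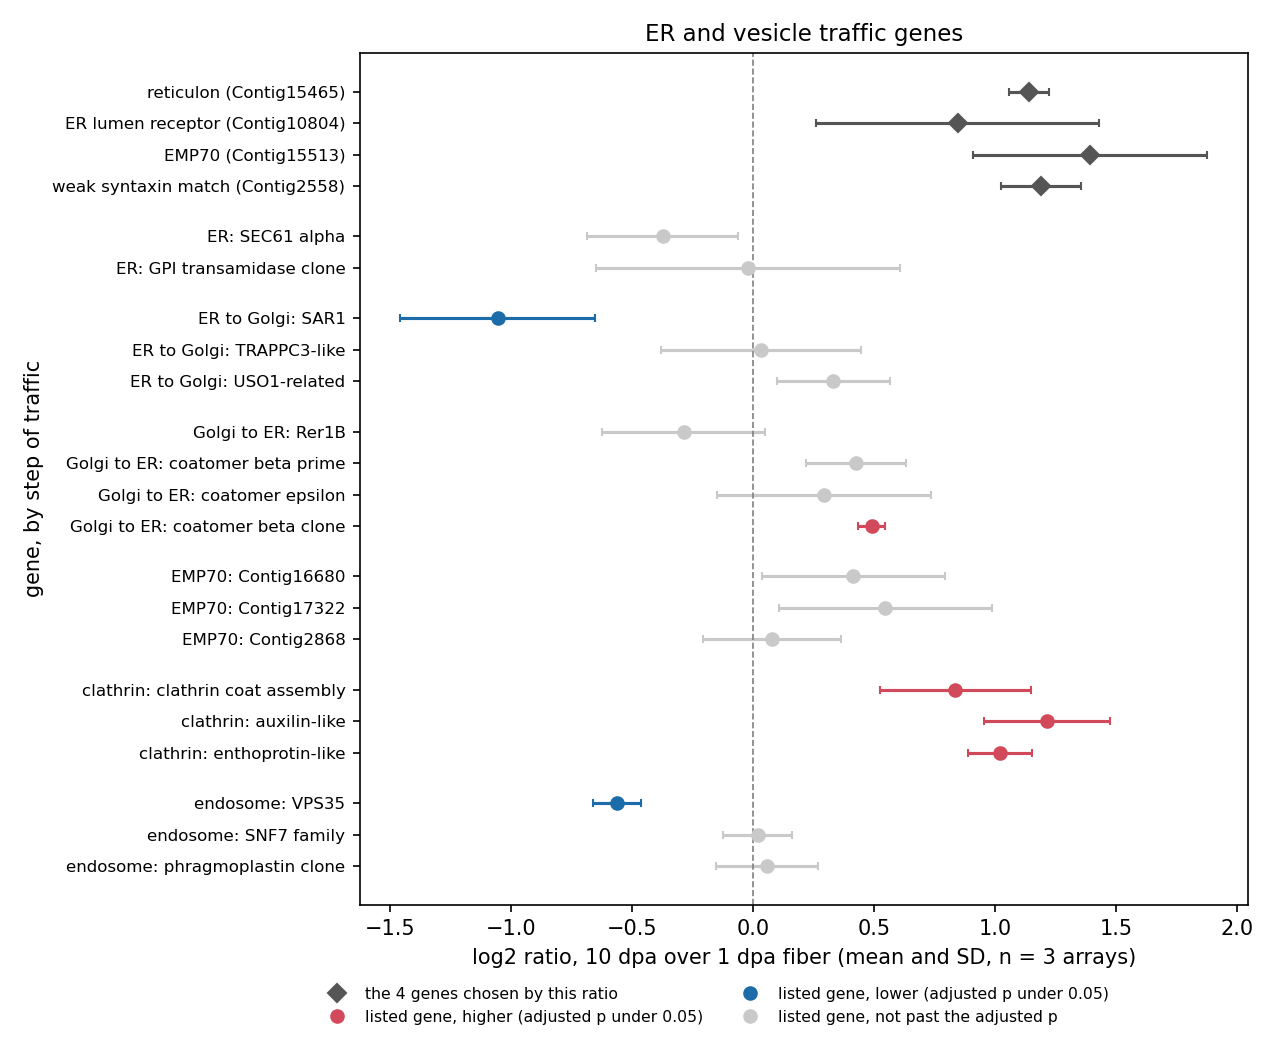
Mean log2 ratio of 10 dpa over 1 dpa fiber with its SD over 3 arrays (horizontal axis) for the 4 chosen genes and the 18 listed genes (vertical axis, by step of traffic), coloured by the call of limma at an adjusted p of 0.05. The 3 clathrin genes lie between 0.83 and 1.22, SAR1 lies at -1.06, and the 3 other EMP70 genes lie between 0.08 and 0.55.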

How the data were processed

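The deposited scanner files give, for each spot of 3 custom 2-colour Agilent arrays, the mean intensity of the green and red channel and of the local background, on a linear scale, and the authors applied no background subtraction or dye normalization to these columns. A deposited value table was not used, because its identifiers match no probe. The study's own test was an F-test from an analysis of variance over 6 arrays, with a threshold of 2-fold and an unadjusted p of 0.05. The ovule arrays it needs were not analysed here.

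Intensities were corrected with normexp (offset 50) and each array's log2 ratios were normalized by loess, giving 2256 control spots no weight (0). Ratios were turned to 10 dpa over 1 dpa, and 42034 spots were averaged to 40372 probes and these to 11143 genes. The array is thus the block of the design. Each ratio was tested against 0 with lmFit and eBayes, with Benjamini-Hochberg adjustment across the 11143 genes (R 4.3.3, limma 3.58.1, jsonlite 2.0.0). The levels of a stage are the normalized log2 intensities of its channel, not scaled between arrays. Arrays give no read depth, and precision is limited by their number.

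The 4 genes and all lists were chosen with earlier results of these data known. The genes named are these 4, every gene of the traffic list past the adjusted p of 0.05 and up to 6 others by role, and for each of the 4 the 3 described genes with the nearest ratios. Small GTPases other than SAR1 were left out of the list. These steps were tested on simulated data of 11143 genes on 3 arrays. The share called was 4% for 1.5-fold, 64% for 2-fold, 86% for 3-fold and 80% for 4-fold changes (50 genes each), and 4 of 10943 unchanged genes were called. The simulated ratios had no trend with brightness, and their noise was independent between arrays. These shares thus do not cover the removal of such a trend or RNA shared between arrays. No probe sequence, gene model or genome coordinate was used here.

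Alternatives tried were median centring, no background correction, leaving out dim probes, scaling between arrays, the median of probes, each probe alone, the channels as separate samples, a dye term, an unmoderated F-test of each gene alone on these 3 arrays (called the methods' F-test, though it lacks the ovule arrays and their shared variance) and the omission of each array in turn.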

Additional observations from a re-analysis of the deposited data

How the results depend on the processing

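Of 48 values of the 4 chosen genes under the alternatives, 40 moved by less than the SD between arrays, 8 moved by more and 0 changed sign. Of the 40, 5 could not move: the filter on dim probes removed no probe of these genes (4 values), and the median over the only probe of Contig15513 is that probe (1 value). The 8 were Contig2558 with median centring (log2 ratio 1.36) and from probe 3 or 4 alone (0.72 and 1.82), Contig15465 from each of probes 1 to 4 alone (0.57, 0.57, 1.77 and 1.65), and Contig10804 from probe 1 alone (0.084). Of 66 values of the 6 called traffic genes, 26 lost the call and 0 changed sign. Over all genes, median centring gave 512 higher and 191 lower calls in place of 895 and 625 (traffic list 2 and 0 in place of 4 and 2), and treating the channels as separate samples gave 547 and 402, with 1 traffic gene lower. With a dye term 1 traffic gene was lower. The methods' F-test for each gene alone on these 3 arrays and scaling between arrays both left 0 genes called over all genes and in the traffic list, in each direction, while 1811 and 2699 genes had an unadjusted p under 0.05, against 2773 in the limma test as reported. At the study's threshold (2-fold and an unadjusted p of 0.05) that F-test gave 334 higher and 176 lower genes, 2 and 1 of them in the traffic list. The cause was not tested. When 1 array was left out, the calls ranged from 803 to 979 higher and from 447 to 1212 lower over all genes, and from 3 to 5 higher and from 1 to 2 lower in the traffic list. Without replicate 1, 1212 genes were called lower.

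Processed signals of the scanner software were not used here. Each of the 4 genes has probes with only 1 kind of name prefix, so an alternative by prefix could not be made. The array block is part of every ratio, and no other paired analysis was possible because each array holds 1 sample of each stage. Probe 1 of Contig15465 was near background, and 3 arrays with 2 RNA codes per stage leave the spread between plants poorly known.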
